A study of Homo sapiens and Mus musculus with 9 samples.

Results

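Keratins are the intermediate filament proteins of epithelial cells, and KRT8, KRT18, KRT19, KRT7 and KRT80 are 5 members of the family. The RNA of these 5 genes was examined here in peak lists from enhanced UV crosslinking and immunoprecipitation sequencing (eCLIP) of PXR, the pregnane X receptor encoded by NR1I2, which is known as a ligand-activated transcription factor for drugs and bile acids. Members were chosen by position: a peak belonged to a gene when its summit, the point of highest read depth, lay in the hg38 span of that gene. By this rule 19 of the 3706 peaks in the 3 human lists were keratin peaks, 9 of 1557 in HepG2, 2 of 46 in the KO-named LS174T list and 8 of 2103 in the WT-named LS174T list. They fell in 4 of the 5 genes, and KRT7 had no peak in any of these lists.

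A keratin filament is built from pairs of one type II and one type I chain, and KRT8 (type II) with KRT18 (type I) is the pair that simple epithelia, among them hepatocytes and intestinal cells, make throughout. KRT19, a short type I chain, pairs with KRT8 in intestinal and bile duct epithelium. KRT7, a type II chain, is typical of ductal epithelium and is scarce in hepatocytes and most colon epithelium. KRT80 is a type II chain tied to cell borders and epithelial differentiation.

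The labels describe HepG2 cells, a human hepatocellular carcinoma line, with 1 input and 2 immunoprecipitates (IPs) made with an antibody to the HA tag. For LS174T, a human colorectal adenocarcinoma line, they give 1 IP from PXR knockout cells, and 1 IP and 1 input from wild-type cells. Both LS174T IPs used an antibody to PXR. The labels do not say how PXR was tagged in HepG2 or removed in LS174T, nor whether the knockout line was 1 clone. The liver list of mice with human PXR was not used here, since its mm10 positions carry no gene names.

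The record ties the LS174T list with WT in its peak names to the wild-type input and the list with KO in its peak names to the wild-type IP, so the lists are called by their peak names and no direction between genotypes, or between IP and input, is settled. Each list is 1 unit with no values per library, so there is no replicate spread, no test was made, and each ratio below compares 2 lists and not 2 conditions. Of all protein-coding genes, 5.45% had a peak in the HepG2 list, 0.11% in the KO-named list and 7.23% in the WT-named list, and the marker counts that follow are to be read beside these shares. The list labelled HepG2 held a peak in 0 of 10 hepatocyte markers (ALB, APOA1 and AFP among those without one), in 2 of 10 colon epithelium markers, and in 5 of 10 luminal epithelium markers (GATA3, MLPH, XBP1, TFF1 and ESR1, with 9 to 47 reads a peak and 331 summed). The WT-named list held a peak in 1 of 10 hepatocyte markers (HNF4A, 7 reads), in 6 of 10 colon markers (TFF3, LGALS4, CEACAM5, MUC2, PHGR1 and EPCAM, 531 reads summed) and in 2 of 10 luminal markers (TFF1 and AGR2, 123 reads summed). CDX2, VIL1, CDH17 and KRT20 of the colon markers had no WT-named peak. In HepG2 the colon markers with a peak were CDH17 and EPCAM. FOXA1, AGR2, SPDEF, TRPS1 and PGR of the luminal markers had no HepG2 peak. TFF1 held peaks of 27 and 38 reads in HepG2, which overlapped peaks of 37 and 51 reads in the WT-named list. The ESR1 peak held 9 reads at a −log10 q of 2.96. The KO-named list held none of these markers. No list had a peak in the 6 mesenchyme markers or in the 6 basal and squamous markers. At the shares of all genes, 0 or 1 of so few genes does not stand apart, so the hepatocyte, mesenchyme and basal counts alone show little. The peaks of the list labelled HepG2 included none of the hepatocyte markers and 5 of 10 luminal markers. The identity of its cells, as labelled or not, was not tested. The marker lists were chosen with earlier results of these data known, so the counts describe the list and do not settle that identity. Below, HepG2 means the list with that label. What these markers contribute to the keratin values was not tested.

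Of the 5 keratin genes, 4 had a peak in HepG2 (KRT8, KRT18, KRT19 and KRT80), 2 in the KO-named list (KRT8 and KRT19) and 3 in the WT-named list (KRT8, KRT18 and KRT19), beside 5.45%, 0.11% and 7.23% of all protein-coding genes in the same order. KRT8 and KRT19 were thus 2 of the 19 protein-coding genes (0.0948%) with a peak in all 3 lists, and KRT18 was, with them, among the 506 (2.53%) with a peak in HepG2 and the WT-named list. The genes were chosen with these results known, so the counts describe them and are no test.

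KRT8 and KRT19 each carried 3 peaks in the HepG2 list and 3 in the WT-named one. Genes with at least 3 peaks made up 0.0998% of protein-coding genes in the HepG2 list and 0.494% in the WT-named one. KRT18 carried 2 peaks in each of these lists, where 0.489% and 1.49% of genes, HepG2 first, had at least 2. In the KO-named list KRT8 and KRT19 had 1 peak each, and 0.11% of genes had any.

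**Figure D1:**
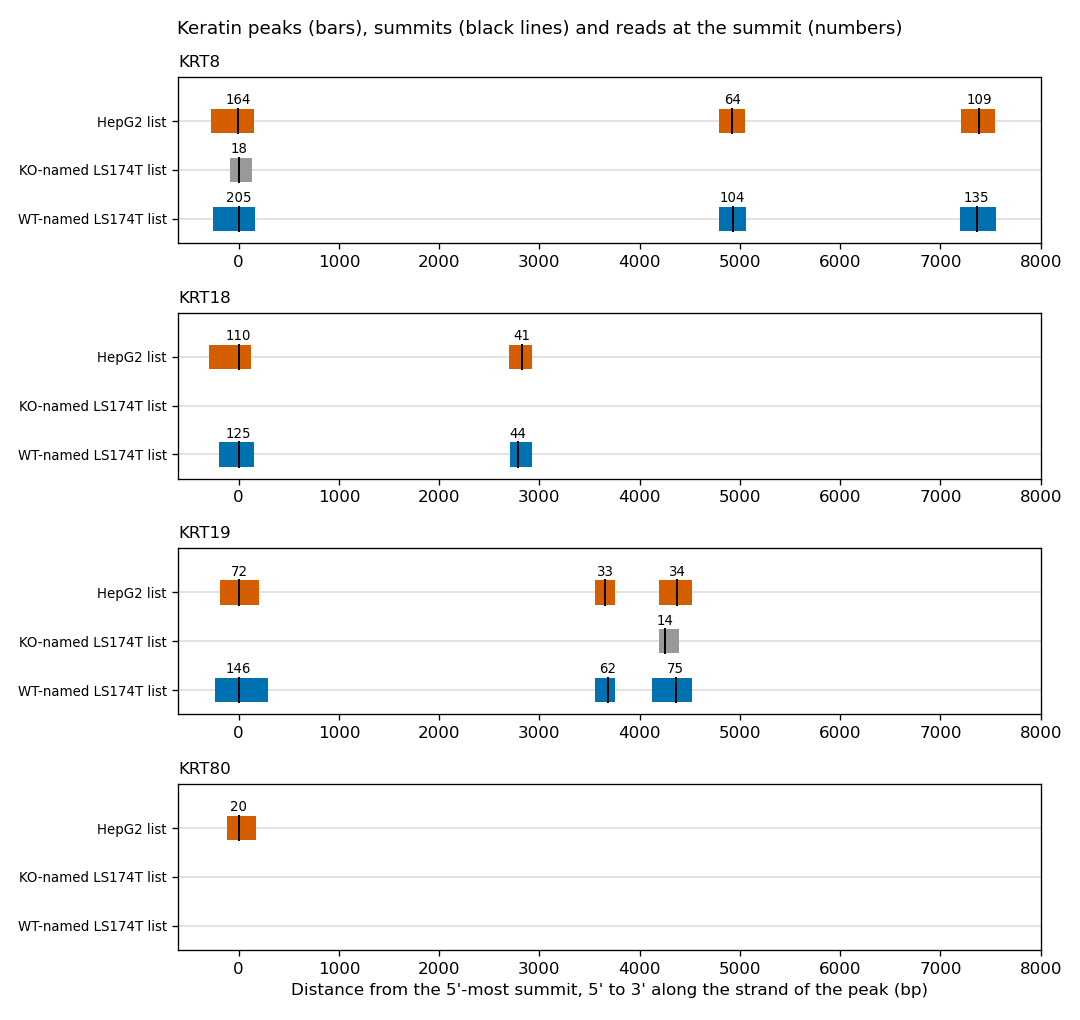
Keratin peaks of the 3 human lists, drawn 5′ to 3′ by distance in bp from the 5′-most summit of each gene (WT-named list, or HepG2 for KRT80), with bars for peaks, black lines for summits and numbers for reads at the summit. The HepG2 and WT-named lists show the same 3 sites in KRT8, 2 in KRT18 and 3 in KRT19, and the KO-named list shows the 5′ site of KRT8 (18 reads) and the 3′ site of KRT19 (14 reads).

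Read depth at a summit was worked out from the authors' deposited fold enrichment and −log10 p, which determine the whole number of reads. Every one of the 19 keratin peaks had a unique solution. The same step gives the number of reads on that strand in the 10000 bp window around the summit. Intervals are 95% exact intervals and cover counting error only. Sites are named 5′, middle and 3′ along the strand of the peak, which equals the annotated strand for KRT8 (minus). The strand of the peak matched that of the gene for 84.5% of the other HepG2 peaks, 89.5% of the KO-named and 92.4% of the WT-named peaks in protein-coding genes of known strand. Exons and UTRs were not annotated in the gene table used, so positions are given within the gene span.

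KRT8 lies on chromosome 12 from 52897191 to 52949860 (hg38). Its 5′ site was the deepest keratin site in each list, with 164 reads in HepG2, 18 reads in the KO-named list and 205 reads in the WT-named list. These reads made it number 8 of 1173 HepG2 peaks in protein-coding genes by reads, number 12 of 23 in the KO-named list and number 14 of 1825 in the WT-named list. The peak ran from 52904586 to 52905011 in HepG2, from 52904604 to 52904824 in the KO-named list and from 52904572 to 52904999 in the WT-named list. The 3 summits lay within 10 bp of each other, at 52904742, 52904732 and 52904739 in the same order. The RefSeq promoter table gives a KRT8 start site at 52926469, and the HepG2 summit lay 21727 bp downstream of it. That start is not the 5′ end of the annotated span, which lay 45118 bp from the summit. Which start the KRT8 RNA in these lists came from is unknown, so neither distance places the site within a transcript.

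The 3′ site of KRT8 was next in depth within the gene, with 109 reads in HepG2 and 135 reads in the WT-named list. It sat at the very end of the gene, with summits 161 bp from the 3′ end of the span in HepG2 and 186 bp from it in the WT-named list. The WT-named peak (52897190 to 52897543) reached 1 bp past the annotated end. The middle site held 64 reads in HepG2 (52899690 to 52899946) and 104 reads in the WT-named list (52899679 to 52899946). Both middle peaks ended at the same base, and their summits were 1 bp apart. Neither the middle nor the 3′ site had a KO-named peak.

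KRT18, the partner chain of KRT8, lies beside it on chromosome 12 from 52948855 to 52952906. The annotated KRT8 span overlaps that of KRT18 by 1006 bp, and the summit of the KRT18 5′ peak lay in both spans in 2 lists. These peaks were on the plus strand, opposite to KRT8, and were assigned to KRT18. The 5′ site held 110 reads in HepG2 (52949159 to 52949571) and 125 reads in the WT-named list (52949257 to 52949602), with summits 1 bp apart and 599 bp from the 5′ end of the span in HepG2. The 3′ site held 41 reads in HepG2 (52952153 to 52952381) and 44 reads in the WT-named list (52952155 to 52952375). KRT18 had no KO-named peak. The list holds only called peaks, so this gives no level for KRT18 RNA there.

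KRT19 lies on chromosome 17 from 41523617 to 41528308. Its 5′ site was the deepest in HepG2 with 72 reads (41527835 to 41528224) and in the WT-named list with 146 reads (41527752 to 41528281). The WT-named peak was 530 bp wide, wider than 96.3% of the WT-named peaks in protein-coding genes. The middle site held 33 reads in HepG2 and 62 reads in the WT-named list. Close to it, the 3′ site held 34 reads in HepG2, 14 reads in the KO-named list and 75 reads in the WT-named list. The 3′ peaks of HepG2 and of the WT-named list ran 100 and 101 bp past the annotated 3′ end, and the KO-named peak (41523652 to 41523851) lay within the gene.

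KRT80 (chromosome 12, 52168996 to 52192014) had 1 peak, in HepG2, from 52191563 to 52191846 with 20 reads. Its summit was on the minus strand, 283 bp from the high-coordinate end of the span. It was the shallowest of the 9 HepG2 keratin peaks, yet deeper than 83.3% of HepG2 peaks in protein-coding genes. KRT7 (chromosome 12, 52233243 to 52255853), the keratin most tied to ducts, had no peak in any of the 3 lists. The nearest HepG2 summit outside the genes examined here was 358472 bp away, in another keratin gene, KRT73. No further summit came close to the other genes either. The nearest to KRT8 was 57381 bp away in HepG2 (3 reads), in the keratin gene KRT78. The nearest to KRT19 was 160776 bp away in the WT-named list (22 reads).

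**Figure D2:**
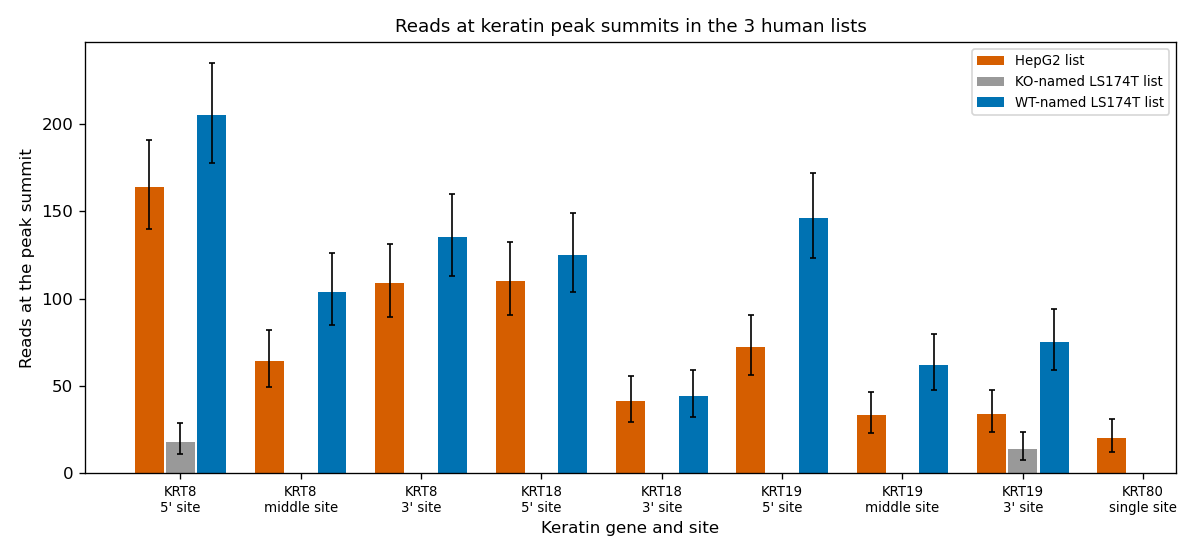
Reads at the summit of each keratin peak (vertical axis) by gene and site, with bars for the HepG2, KO-named and WT-named lists and 95% exact Poisson intervals for counting error; a missing bar means no peak. The 5′ site is the highest of its gene in both HepG2 and the WT-named list for KRT8, KRT18 and KRT19, and the KO-named bars are at 18 and 14 reads.

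Keratin peaks were deep and wide beside the other peaks of HepG2 and of the WT-named list. Their reads had a median of 64 in HepG2 (20 to 164) against 10 for the other 1164 peaks in protein-coding genes, and of 114.5 in the WT-named list (44 to 205) against 11 for the other 1817. In the KO-named list the 2 keratin peaks, at 14 and 18 reads, were below the median of 19 of the other 21 peaks. Widths had a median of 333 bp in HepG2 (202 to 426) and 350 bp in the WT-named list (205 to 530), where the other peaks had 203 and 217 bp. Among other peaks at least as deep as the shallowest keratin peak the median widths were 271 bp in HepG2 (187 peaks) and 279 bp in the WT-named list (103 peaks). The deposited fold enrichment of keratin peaks ranged from 6.37 to 19.0 in HepG2, from 9.49 to 10.8 in the KO-named list and from 5.71 to 21.4 in the WT-named list. Each list reached folds above 48 elsewhere. The fold divides by a background from the same window, and other keratin reads lie in that window.

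The split of reads between sites of a gene was close in HepG2 and the WT-named list. For KRT8 the 5′ site took 48.7% of the reads summed over the 3 sites in HepG2 (164 of 337, interval 43.2 to 54.1%) and 46.2% in the WT-named list (205 of 444, interval 41.5 to 50.9%). For KRT18 it took 72.8% in HepG2 (110 of 151, interval 65.0 to 79.8%) and 74.0% in the WT-named list (125 of 169, interval 66.7 to 80.4%). For KRT19 it took 51.8% in HepG2 (72 of 139, interval 43.2 to 60.3%) and 51.6% in the WT-named list (146 of 283, interval 45.6 to 57.5%). In all 3 genes the intervals of the lists overlapped. In all 3 genes, too, the deepest site was the 5′-most one in both lists. Among other genes with 2 or more peaks on their own strand this held for 41 of 70 (58.6%) in HepG2 and 110 of 216 (50.9%) in the WT-named list.

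A second view of the same sites sets the summit against its own window. The 5′ site of KRT8 held 42.6% of the reads of its window in HepG2 (164 of 385, interval 37.6 to 47.7%), 47.4% in the KO-named list (18 of 38, interval 31.0 to 64.2%) and 47.5% in the WT-named list (205 of 432, interval 42.7 to 52.3%). At this site the 3 intervals overlapped. The 3′ site of KRT19 held 15.6% in HepG2 (34 of 218, interval 11.1 to 21.1%), 48.3% in the KO-named list (14 of 29, interval 29.5 to 67.5%) and 14.9% in the WT-named list (75 of 503, interval 11.9 to 18.3%). The KO-named interval lay above both others. Shares were high in the KO-named list in general, with a median of 61.4% over its other peaks of at least 14 reads. The 48.3% was thus not high for that list. The 5′ site of KRT19, the deepest one of the gene in both larger lists, had no KO-named peak, and the KO-named window held 15 reads outside the 3′ summit. Over all keratin peaks the share had a median of 32.2% in the HepG2 list and 26.2% in the WT-named one, where other peaks at least as deep as the shallowest keratin peak had 35.1% and 36.2%.

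**Figure D3:**
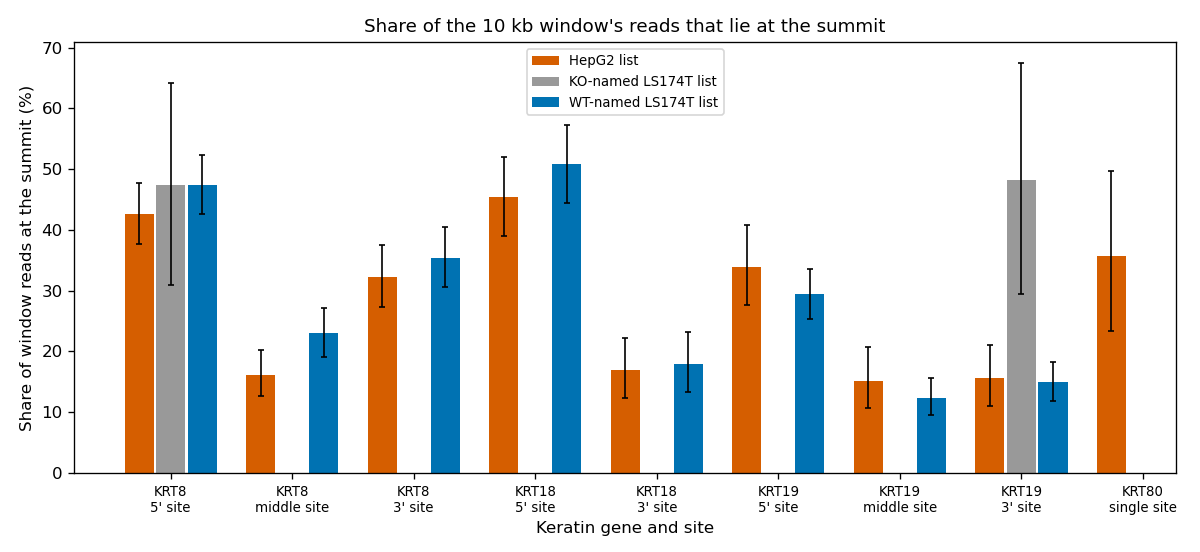
Share (%) of the reads in the 10 kb window that lie at the summit, by gene and site, for the HepG2, KO-named and WT-named lists, with 95% Clopper-Pearson intervals for counting error. The KRT8 5′ site shows 42.6, 47.4 and 47.5% in that order. The KRT19 3′ site shows 48.3% in the KO-named list beside 15.6% in the HepG2 list and 14.9% in the WT-named one. Other KO-named peaks of at least 14 reads had a median of 61.4%.

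Nearly every keratin site of one large list was a site of the other. Of the 9 HepG2 keratin peaks 8 (88.9%) overlapped a WT-named peak by at least 1 bp on the same strand, KRT80 being the exception. All 8 WT-named keratin peaks (100%) overlapped a HepG2 peak. Among all peaks in protein-coding genes these shares were 39.6% for HepG2 and 25.5% for the WT-named list. Among peaks at least as deep as the shallowest keratin peak they were 64.8% for HepG2 (127 of 196) and 57.7% for the WT-named list (64 of 111). Summits of the 8 shared sites were 1 to 36 bp apart, and at 3 of them (the 5′ site of KRT8, its middle site and the 5′ site of KRT18) within 3 bp. The median gap over 458 other overlapping pairs in protein-coding genes was 24 bp (quartiles 6 and 64.8), and 19.7% of them were within 3 bp.

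Reads at the KRT18 sites and at the KRT8 3′ site in HepG2 were within counting error of those in the WT-named list. Those at the other KRT8 sites were 0.615 and 0.8 times as many, and those at KRT19 sites about 0.5 times as many. Reads at the 5′ site of KRT18 stood at a HepG2 over WT-named ratio of 0.88 (interval 0.675 to 1.15), and those at its 3′ site at 0.932 (interval 0.594 to 1.46). For KRT8 the ratio was 0.8 at the 5′ site (interval 0.647 to 0.987), 0.615 at the middle site (interval 0.444 to 0.848) and 0.807 at the 3′ site (interval 0.621 to 1.05). For KRT19 it was 0.493 at the 5′ site (interval 0.367 to 0.658), 0.532 at the middle site (interval 0.338 to 0.825) and 0.453 at the 3′ site (interval 0.293 to 0.688). Over the 458 other pairs the median ratio was 0.929 (quartiles 0.564 and 1.4), so all 3 KRT19 sites were below the lower quartile and all KRT8 and KRT18 sites between the quartiles.

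Summed over the sites of a gene, the HepG2 over WT-named ratio was 0.759 for KRT8 (interval 0.657 to 0.876), 0.893 for KRT18 (interval 0.713 to 1.12) and 0.491 for KRT19 (interval 0.398 to 0.604). The KRT19 interval lay below those of KRT8 and KRT18, and the latter overlapped each other. The windows, which also count reads outside the summits, gave the same order at the 5′ sites. The window ratio was 0.891 for KRT8 (385 against 432 reads, interval 0.775 to 1.02), 0.984 for KRT18 (242 against 246 reads, interval 0.82 to 1.18) and 0.427 for KRT19 (212 against 497 reads, interval 0.361 to 0.502). The median window ratio of the other pairs, again not matched for depth, was 1.05 (quartiles 0.634 and 1.75). In terms of the deposited fold, which divides by the gene's own window, the KRT19 ratio was 1.04 at the 5′ site, 1.12 at the middle site and 0.95 at the 3′ site. The lists were not scaled to each other, and RNA abundance, depth and immunoprecipitation cannot be told apart in them.

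**Figure D4:**
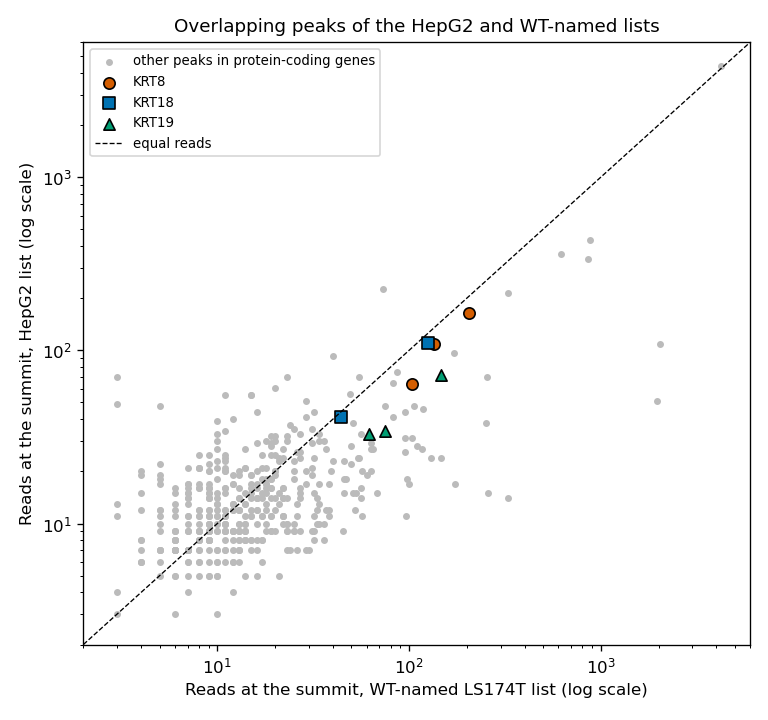
Reads at the summit in the HepG2 list (vertical axis, log scale) against the WT-named list (horizontal axis, log scale) for overlapping peaks in protein-coding genes, with the keratin sites marked and a dashed line at equal reads. All 8 keratin sites lie below the line, the 2 KRT18 sites at ratios of 0.88 and 0.932, the 3 KRT8 sites at 0.615 to 0.807 and the 3 KRT19 sites at 0.453 to 0.532.

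Both keratin sites with a KO-named peak held fewer reads in the KO-named list than in the WT-named list. At the 5′ site of KRT8 the KO-named over WT-named ratio was 0.0878 (18 against 205 reads, interval 0.051 to 0.142), and at the 3′ site of KRT19 it was 0.187 (14 against 75 reads, interval 0.0974 to 0.333). The median over the other 21 overlapping pairs in protein-coding genes was 0.333 (quartiles 0.115 and 0.567). The KRT8 ratio was below the lower quartile and the KRT19 ratio was not. These pairs were not matched for depth, so the quartiles do not show whether KRT8 was low among sites as deep in the WT-named list. All 23 KO-named peaks in protein-coding genes (100%), the keratin ones included, overlapped a WT-named peak, and 1.26% of the WT-named ones overlapped a KO-named peak. By window the ratio was 0.088 for KRT8 (38 against 432 reads, interval 0.0614 to 0.123) and 0.0577 for KRT19 (29 against 503 reads, interval 0.0382 to 0.0838), where the other pairs had a median of 0.207 (quartiles 0.11 and 0.249). Both keratin windows were thus below the lower quartile of these pairs, which were not matched for depth. At the KRT19 site the summits were 105 bp apart, so the peaks overlapped while their highest points differed. With an overlap of 50% of both peaks required, 1 of the 2 KO-named keratin peaks was shared, since the KO-named KRT19 peak, 200 bp wide, covers less than that of the WT-named peak of 401 bp. By deposited fold the KO-named over WT-named ratio was 0.505 for the KRT8 site and 1.38 for the KRT19 site. Reads summed over the called peaks of a gene gave 0.0405 for KRT8 (18 against 444) and 0.0495 for KRT19 (14 against 283), but these set 1 KO-named peak against 3 WT-named peaks and count sites without a KO-named peak as 0, which lowers them by construction.

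Of 50 other keratin genes 2 had a peak in HepG2 (4.0%, where all protein-coding genes had 5.45%), 0 in the KO-named list (all protein-coding genes, 0.11%) and 0 in the WT-named list (all protein-coding genes, 7.23%). The HepG2 share was near that of all genes. The 2 genes were KRT73, a hair follicle keratin, and KRT78, a keratin of stratified epithelia, with 3 reads each, the lowest number of any HepG2 peak. The KRT73 peak, on the minus strand, also lies in the span of the antisense gene KRT73-AS1. The KRT78 peak was on the plus strand. Peaks were assigned without strand here, so these reads need not come from KRT78 RNA. Of 152 annotated keratin pseudogenes, 1 had a peak in HepG2 (KRT19P1, 7 reads) and 2 in the WT-named list (KRT19P1, 10 reads, and KRT8P33, 4 reads). The HepG2 share was 0.658%, where 0.34% of all annotated pseudogenes had a peak, and the WT-named share was 1.32%, where 0.733% did. Counts of 1 and 2 genes do not set the keratin pseudogenes apart from the rest. No keratin pseudogene had a KO-named peak, and 0.0352% of all pseudogenes did. Processed pseudogenes copy the mRNA of their parent gene, and how reads that fit several places were handled is not given in the sources used here.

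Genes listed as keratin partners had shallower peaks than the keratins. The list joins genes of proteins that anchor or modify keratin filaments with lamin and other intermediate filament genes. Of 25 such partner genes 5 had a peak in HepG2 (20.0%), 0 in the KO-named list and 10 in the WT-named list (40.0%), where 5.45%, 0.11% and 7.23% of all protein-coding genes did. The list was drawn up with earlier results known, and these shares describe it. On the strand of the gene, 4 partner genes had a HepG2 peak and 10 a WT-named peak. The deepest in the WT-named list was the lamin gene LMNA with 25 reads. ITGB4, an integrin of hemidesmosomes, followed with 4 peaks of 17 to 20 reads, and JUP, which encodes plakoglobin, with 18 reads. The desmosomal plakophilin gene PKP3 held 14 reads there. None of LMNA, ITGB4, JUP and PKP3 had a HepG2 peak. PKP4 (14 reads), which encodes a related junction protein, and the lamin gene LMNB1 (12 reads) had a peak in HepG2 and none in the WT-named list. CSNK1A1, a casein kinase, held 18 reads in HepG2 and 18 reads in the WT-named list, in overlapping peaks. YWHAZ, a 14-3-3 protein, held 17 reads in HepG2 and 10 reads in the WT-named list, at different sites of the gene, so these are not a comparison of 1 site. VIM, the intermediate filament gene of mesenchymal cells, and PLEC, which links filaments to junctions, had no peak in any of the 3 lists.

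The genes with the most similar depth were found by the distance between the log2(1 + reads) of the deepest peaks. Candidates were protein-coding genes outside the keratins with a peak in exactly the same lists. The keratins were thus not compared with each other. Nearest to KRT8 over 3 lists was CNTN3, which encodes a neuronal adhesion protein, with 214 reads in HepG2, 19 in the KO-named list and 329 in the WT-named list (distance 0.783 on the log2 scale, of 17 candidates). FZD6 (distance 1.99) and RPLP1 (2.15) came next among these candidates and were much farther than CNTN3. Nearest to KRT19 was the glycolytic enzyme gene ALDOA, with 44 reads in HepG2, 24 in the KO-named list and 95 in the WT-named list (distance 1.19). LOC112694756 followed at the same distance with the same reads as ALDOA in all 3 lists. Peaks were assigned by summit, so a peak in 2 overlapping spans counts for both genes, and LOC112694756 may not be a separate neighbour. RPLP1 (1.37) came next. For KRT18 the candidates were 486 genes with a peak in HepG2 and the WT-named list but none in the KO-named list. The actin gene ACTB came first (96 reads in the HepG2 list and 171 in the WT-named one, distance 0.489). RPS2 (75 and 86 reads, distance 0.764) and the elongation factor gene EEF2 (48 and 108 reads, distance 1.2) followed, HepG2 first.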

How the data were processed

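The submitters' processing notes name cutadapt, BWA, MACS2 and the builds hg38 and mm10, with no roles. Which versions and settings applied is not given in the sources used here. Deposited by the authors were 1 peak list for HepG2 and 2 for LS174T, called per strand according to the peak names, and whether the 2 HepG2 IPs were pooled is not stated. Each peak carries the authors' deposited score, fold enrichment (a ratio over the local background), −log10 p and −log10 q. The total depth of each library is unknown.

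Reads n and background λ were recovered from fold = (n + 1)/(λ + 1) and the deposited p, taken as the upper Poisson tail beyond n, with λ in steps of 0.02 (reads of 200 bp in a 10000 bp window), which caps the fold at 50. A unique whole solution (deposited and computed −log10 p within 0.001, allowing a small relative error, and a window count whole within 0.01 plus rounding) was found for 3694 of 3706 peaks. The recovery was checked on simulated peaks. Genes came from the RefSeq GRCh38 table, and strands, known for 15843 of 20037 protein-coding genes, from its promoter table. Peaks were assigned by summit, without strand except where a summit lay in 2 keratin spans. Overlap means 1 bp on the same strand, and positions are 1-based. Intervals are exact (Clopper-Pearson, conditional binomial or Poisson) and cover counting error only, since reads may include PCR copies. Python 3.11.15, SciPy 1.17.1 and pandas 2.3.3 were used.

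All 5 keratins were named, with every other keratin or keratin pseudogene with a peak, up to 8 partner genes by reads, and the 3 nearest genes by depth for each keratin with peaks in at least 2 lists. VIM and PLEC were named after their values were seen. The members and gene lists were chosen with earlier results of these data known.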

Additional observations from a re-analysis of the deposited data

How the results depend on the processing

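Keratin peak counts were the same with −log10 q of at least 5 and with at least 10 reads. They were also the same by 1 bp of overlap with the span, on the gene's strand and with spans widened by 500 bp. These settings had little room to change them. The lowest keratin values were a −log10 q of 9.71 and 14 reads, and the nearest other summit was 57381 bp from any of the keratin genes examined. Of the keratins, only KRT8 had a known strand, so the strand setting could act on no other. Of the 8 WT-named and 9 HepG2 keratin peaks, 8 each were shared in every setting tried. The KO-named peaks shared with the WT-named list dropped to 1 of 2, in both directions, when the overlap had to cover 50% of both peaks (the KO-named KRT19 peak is 200 bp wide and the WT-named one 401 bp) or summits had to lie within 50 bp (the KRT19 summits are 105 bp apart). With the deposited fold in place of reads the median KO-named over WT-named ratio was 0.943 (0.137 by reads) and that of HepG2 over the WT-named list 0.921 (0.708 by reads). The ratio then turned round for KRT19, to 1.38 at the 3′ site for the KO-named list and to 1.04 at the 5′ and 1.12 at the middle site for HepG2, since the fold divides by the gene's own window. Summing reads over a gene's called peaks gave 0.045 for the KO-named list, with uncalled sites entering as 0. The share of protein-coding genes with a peak moved to 3.74% for HepG2 and 5.55% for the WT-named list with −log10 q of at least 5, and to 2.75% and 3.88% with at least 10 reads. With either filter no other keratin gene kept a HepG2 peak (0), and 1 pseudogene kept a WT-named peak; with at least 10 reads 0 pseudogenes kept a HepG2 peak. No paired analysis was possible because the lists hold no values per library, and leaving out a replicate was not possible for the same reason.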
